A study of Homo sapiens with 6 samples.

Results

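The short arm of chromosome 5 was examined in peak lists of OCI-AML3, a human leukemia cell line of the myeloid lineage with a mutant NPM1 gene. A peak was taken as lying on the arm where it ended below position 46000000 of chromosome 5. Of all 1105043 peaks in the 4 lists, 66876 met this rule. The rule gave 15424 of 327715 peaks (4.71%) in the H3K27Ac list of cells given the control guide RNA sgNeg, and 14339 of 317059 (4.52%) in that of cells given sgNpm1A, a guide RNA against mutant NPM1. It gave 26986 of 353628 peaks (7.63%) in the sgNeg H3K4me3 list and 10127 of 106641 (9.50%) in the sgNpm1A H3K4me3 list. The arm was selected on the density of its peaks in these lists, so density is given below as a description only.

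All groups were OCI-AML3 cells transfected with 1 of the 2 guide RNAs and, per the labels, kept for 3 days, and a longer time is given in the methods of the study. The names of the H3K27Ac lists carry the tag OCI2 and those of the H3K4me3 lists OCI3. The study also used OCI-AML2, a line without mutant NPM1, and whether the tag refers to it is not settled, so that the line behind the H3K27Ac lists is given here as labelled. The cells were bulk cultures, and the share of cells edited was not measured in these files. Each guide and mark had 1 library, so that no difference between guides has a replicate check and no p-value is given. Both marks were mapped by ChIP-seq with tagmentation by Tn5 transposase on the beads, and the 2 input libraries were not analysed here.

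Acetylation of lysine 27 of histone H3 (H3K27Ac) is found at active promoters and enhancers, and trimethylation of lysine 4 (H3K4me3) at the starts of active genes. Both marks are therefore known for peaks at gene starts, above all those rich in CpG, the base pair step at which vertebrate genomes are mostly poor. The short arm of chromosome 5 holds housekeeping genes towards both ends, cytokine receptor genes towards the centromere, and in between a long gene-poor stretch with cadherin genes that are used mainly in the nervous system. The published karyotype of OCI-AML3 includes an isochromosome of this arm, which adds copies of it. Copy number was not measured in these files, and its part in the peak density was not tested.

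The sgNpm1A libraries had little or no excess of peaks at gene starts, where both marks are known to lie. Over all coding genes, the 1 kb on either side of a start held a peak in 57.0% of genes in the sgNpm1A H3K27Ac list, and windows 20 kb away did so in 54.9%. In the library labelled sgNpm1A H3K4me3, the share was 7.62% at starts and 11.0% in the windows 20 kb away. The sgNeg lists had 79.1% at starts against 59.2% beside them for H3K27Ac, and 65.1% against 28.3% for H3K4me3. The promoter of SPI1, a defining transcription factor of myeloid cells, had a fold enrichment of 10.5 and 10.6 in the sgNeg H3K27Ac and H3K4me3 lists, 2.83 in the sgNpm1A H3K27Ac list and no peak in that of sgNpm1A H3K4me3. SPI1 had the highest fold of the 6 myeloid markers in both sgNeg lists. In sgNeg H3K27Ac MPO had 6.25, and CD33, CSF1R, LYZ and CSF3R had 3.34 to 3.71. In sgNeg H3K4me3 MPO had 3.12 and CSF3R 3.74, and CD33, CSF1R and LYZ had no peak. CSF1R was higher in sgNpm1A, with 3.39 for H3K27Ac and 3.82 for H3K4me3. Of 6 myeloid markers, 6 and 3 had a promoter peak in the sgNeg lists of the 2 marks, and 5 and 1 in the sgNpm1A lists. Of 9 markers of B cells, T cells and erythroid cells, 6 had one in sgNeg H3K27Ac and 2 in sgNeg H3K4me3, with folds of at most 4.16, and 5 and 0 in the sgNpm1A lists, with folds of at most 4.06. Every statement on sgNpm1A below is about these libraries as labelled.

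Examples of sequence from the arm are shown, first from before gene starts and then from peaks. The first ones are not the bases under the H3K4me3 peaks. Those of UBE2QL1 lay outside its H3K4me3 peaks in both guides, and those of ICE1 reached only the edge of its sgNeg H3K4me3 peak. The first set holds the 250 bases before the start of ICE1, whose promoter had the highest sgNeg H3K4me3 fold on the arm, of UBE2QL1, with a promoter peak in all 4 lists, and of CDH10, which had no H3K4me3 peak. They are from RefSeq on GRCh38.p14, written 5′ to 3′ on the strand of the gene, with each CpG in capitals.
ICE1, chr5:5422427-5422676, plus strand: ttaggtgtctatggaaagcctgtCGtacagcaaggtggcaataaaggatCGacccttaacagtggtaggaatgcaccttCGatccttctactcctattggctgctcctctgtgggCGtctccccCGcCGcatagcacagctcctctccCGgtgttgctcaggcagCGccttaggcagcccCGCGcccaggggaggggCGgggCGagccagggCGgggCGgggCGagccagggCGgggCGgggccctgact
UBE2QL1, chr5:6448609-6448858, plus strand: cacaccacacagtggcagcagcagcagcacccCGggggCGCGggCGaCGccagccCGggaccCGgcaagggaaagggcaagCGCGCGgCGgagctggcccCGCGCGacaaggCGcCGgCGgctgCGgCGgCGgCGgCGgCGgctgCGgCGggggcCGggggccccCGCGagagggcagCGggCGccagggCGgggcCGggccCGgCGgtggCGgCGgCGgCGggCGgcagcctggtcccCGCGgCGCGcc
CDH10, chr5:24644979-24645228, minus strand: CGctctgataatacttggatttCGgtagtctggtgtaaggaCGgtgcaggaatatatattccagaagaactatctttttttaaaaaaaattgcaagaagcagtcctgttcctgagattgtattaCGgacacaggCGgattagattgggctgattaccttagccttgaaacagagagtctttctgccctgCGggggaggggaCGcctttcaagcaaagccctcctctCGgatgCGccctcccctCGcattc
UBE2QL1 had 43 CpGs in these bases and ICE1 had 17, against 10 for CDH10. As many CpGs as in UBE2QL1 were found in 1.22% of the 12711 promoters compared, as many as in ICE1 in 53.7% and as many as in CDH10 in 70.1%.

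The next sequence is 1 of the weak H3K27Ac peaks that make up most of the arm. It is a whole sgNeg peak away from gene starts with a fold near the median of its list, and a sgNpm1A peak overlaps it. It is on GRCh37, plus strand, with CpGs in capitals.
Peak in the gene-poor stretch, within the bin of CDH18, chr5:20556457-20556691, fold 2.85: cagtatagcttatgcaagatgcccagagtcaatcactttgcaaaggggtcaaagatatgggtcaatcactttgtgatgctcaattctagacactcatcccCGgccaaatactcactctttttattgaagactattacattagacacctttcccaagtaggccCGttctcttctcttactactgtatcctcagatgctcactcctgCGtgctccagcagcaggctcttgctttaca
This peak had 3 CpGs and 44.7% of G and C.

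The last sequence is the middle 300 bases of the strongest sgNpm1A H3K27Ac peak of the arm, on GRCh37, plus strand. Here the capitals mark unbroken runs of at least 8 alternating letters of A and C or of G and T.
Peak between coding genes, 111 kb from the start of IRX1, chr5:3484555-3484854, fold 16.7: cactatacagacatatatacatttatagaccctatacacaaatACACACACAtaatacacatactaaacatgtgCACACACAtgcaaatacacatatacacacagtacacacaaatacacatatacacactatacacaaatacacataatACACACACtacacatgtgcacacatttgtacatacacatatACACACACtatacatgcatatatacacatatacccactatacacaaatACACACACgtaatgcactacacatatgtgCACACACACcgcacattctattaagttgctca
It had 2 CpGs and 34.0% of G and C.

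The arm held more peaks per Mb than the rest of chromosome 5 in every list. The sgNeg H3K27Ac list had 335 peaks per Mb on the arm, 84.4 on the rest of the chromosome and 103 on all other chromosomes. For sgNpm1A H3K27Ac the values were 312, 85.6 and 99.99. The sgNeg H3K4me3 list had 587 peaks per Mb on the arm, 69.5 on the rest of chromosome 5 and 109 elsewhere, and the sgNpm1A H3K4me3 list had 220, 18.9 and 32.4. Density on the arm was thus 3.97, 3.64, 8.44 and 11.7 times that of the rest of the chromosome, and peaks covered 26.1%, 30.7%, 20.6% and 15.0% of the arm's bases. Each autosome was also split into arms at its longest stretch without peaks, leaving out the 5 acrocentric chromosomes. Among the 34 arms 5p ranked first in all 4 lists, at 3.16, 2.96, 5.65 and 8.40 times the median arm. The next arms were 8q, 1q and 8p in that order in every list, and 8q stood at 2.42, 2.43, 3.63 and 5.24 times the median.

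With chromosome 5 divided into bins of 500 kb, the position that best separated dense from sparse bins lay at 46 Mb in all 4 lists. This position is also the limit of the rule. The last sgNeg H3K27Ac peak inside it (chr5:45999121-45999298) had a fold of 2.65 and the first outside it (chr5:46019174-46019348) a fold of 2.57. The corresponding folds were 3.28 and 2.84 in sgNpm1A H3K27Ac, 3.54 and 2.50 in sgNeg H3K4me3, and 3.82 and 3.05 in sgNpm1A H3K4me3. Past the limit the peaks went on to the edge of a stretch without peaks at the centromere, 0.405 Mb further on GRCh37 and 1.095 Mb further on GRCh38, with 25, 24, 70 and 15 peaks in between. The first 500 kb past that stretch held 13, 9, 7 and 3 peaks. The second step lay far out on the long arm, at 130.5, 131, 131.5 and 131.5 Mb. The third lay at 17 Mb within the short arm for H3K4me3 alone, where density fell from 760 to 485 peaks per Mb in sgNeg and from 313 to 166 in sgNpm1A.

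**Figure D1:**
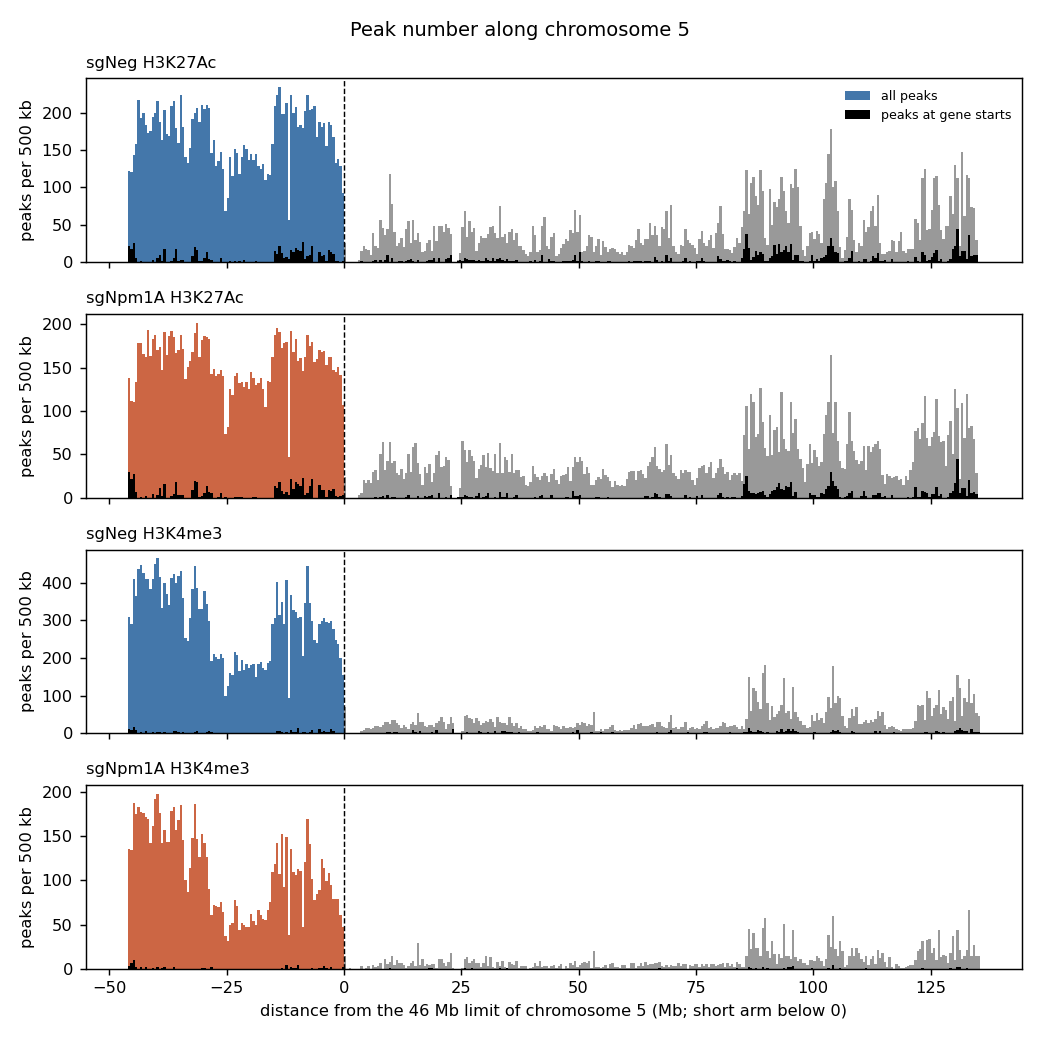
Peaks per 500 kb bin along chromosome 5 against the distance of the bin from the 46 Mb limit, 1 panel per list; coloured bars are the short arm, grey bars the rest, and black bars the peaks within 1 kb of a coding gene start. The coloured bins reach 234, 202, 465 and 198 peaks from top to bottom, and the bars drop at the limit in all 4 panels.

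The 92 bins of the arm were dense almost throughout. They held 56 to 234 sgNeg H3K27Ac peaks (median 172.5), whereas the 270 bins of the rest of the chromosome had a median of 33. The ranges were 47 to 202 (median 161.5) in sgNpm1A H3K27Ac, 93 to 465 (298.5) in sgNeg H3K4me3 and 32 to 198 (108.5) in sgNpm1A H3K4me3, against medians of 34.5, 24 and 5 on the rest. The 2 parts overlapped: the densest bins outside the arm reached 178, 165, 181 and 66 peaks. On other chromosomes 2.04%, 1.64%, 1.38% and 1.44% of bins were at least as dense as the median bin of the arm.

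Bins without any coding gene start were dense as well. The 38 such bins of the arm had medians of 142.5, 144, 209 and 74 peaks in the 4 lists, and the other 54 had 186.5, 168.5, 317.5 and 122.5. On the rest of the chromosome the bins without a gene start had medians of 20, 25, 13 and 3. The stretch from 18 to 31 Mb, which held the starts of 5 coding genes, the cadherins CDH9, CDH10, CDH12 and CDH18 and the meiotic PRDM9, had 263, 262, 367 and 121 peaks per Mb. It was sparser than the first 10 Mb of the arm, with 361, 332, 791 and 333 peaks per Mb, and denser than the rest of chromosome 5.

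The sparsest bins and the densest H3K4me3 bin were the same in both guides, while none of the 3 densest H3K27Ac bins was. The bin from 34.0 to 34.5 Mb, which holds AMACR, an enzyme of branched fatty acid oxidation, and C1QTNF3, a secreted protein of the complement-like family, was the sparsest in 3 lists, with 56, 47 and 93 peaks, and the third sparsest in sgNpm1A H3K4me3, with 38. The bins from 20.5 to 21.5 Mb, with CDH18 and then no coding gene, were the next sparsest. None of these bins had undetermined bases in GRCh37. The densest H3K27Ac bin in sgNeg, with 234 peaks, lay at 32.0 to 32.5 Mb and held PDZD2, GOLPH3, MTMR12 and ZFR, and that in sgNpm1A, with 202, lay at 14.5 to 15.0 Mb and held TRIO, OTULINL, OTULIN and ANKH. The densest H3K4me3 bin was the same in both guides, at 6.0 to 6.5 Mb with MED10 and UBE2QL1, and had 465 and 198 peaks.

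Across the 92 bins the peak numbers of both guides followed each other, with a Spearman correlation of 0.888 for H3K27Ac and 0.974 for H3K4me3. The bins share their library and base composition, so these values are descriptions. The ratio of sgNpm1A to sgNeg peaks per bin ran from 0.751 to 1.16 (median 0.924) for H3K27Ac and from 0.228 to 0.478 (median 0.367) for H3K4me3.

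The dense peaks were mostly away from gene starts, and mostly weak as well in every list but that of sgNpm1A H3K4me3. A peak was called a promoter peak if it touched the 1 kb on either side of a coding gene start. Starts were all annotated transcript starts for H3K27Ac and the start of the gene record for H3K4me3. Promoter shares of the 2 marks are therefore not comparable. A peak was called weak if its fold enrichment, the ratio of its pileup to the expected one, was under 4. In sgNeg H3K27Ac 530 peaks of the arm (3.44%) lay at promoters, against 10.9 percent over the whole list, and weak peaks elsewhere made up 95.05%. In sgNpm1A H3K27Ac these shares were 3.70% (whole list 8.29 percent) and 91.8%. In sgNeg H3K4me3 235 peaks (0.871%) lay at promoters, against 4.64 percent, and weak peaks elsewhere were 69.0%. In sgNpm1A H3K4me3 they were 0.602% (whole list 1.51 percent) and 47.7%. The sgNeg H3K27Ac peaks of the arm lay 2165 bp apart (median between starts), against 4973 bp on the long arm, and the sgNeg H3K4me3 peaks 1094 bp against 5229 bp. Away from promoters their median widths were 463, 647, 252 and 508 bp in the 4 lists, and at promoters 1006, 1064, 534 and 950 bp. In the H3K4me3 lists every fold was, within 0.02 fragments, a whole number of fragments plus 1, divided by a constant background plus 1. This background was 3.81 fragments in sgNeg and 2.93 in sgNpm1A, so that the expected pileup was the same on the arm as elsewhere. A fold of 4 thus stood for fewer fragments in sgNpm1A H3K4me3 than in sgNeg H3K4me3. The median peak of the arm had 16 fragments in sgNeg and 15 in sgNpm1A, and that of the rest of the chromosome 14 and 13.

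The excess on the arm depended on the strength of the peak and on its distance from genes. Away from promoters, the density ratio of the arm to the rest of the chromosome rose with fold enrichment up to a middle range and was lower beyond it. For sgNeg H3K27Ac it was 3.44 under a fold of 3, 9.41 at 3.5 to 4 and 3.35 at 6 to 8. For sgNpm1A H3K27Ac it was 2.18 under 3, 17.0 at 4 to 5 and 6.96 at 6 to 8. For sgNeg H3K4me3 it was 4.02 under 3, 60.1 at 5 to 6 and 8.30 at 8 and over. For sgNpm1A H3K4me3 it was 3.07 under 3, 90.0 at 5 to 6 and 81.0 at 6 to 8. Few peaks lay behind some of the values at 6 to 8. These were 16 on the arm and 14 on the rest in sgNeg H3K27Ac, and 19 and 8 in sgNpm1A H3K27Ac. In sgNpm1A H3K4me3 the rest of the chromosome had 11. Promoter peaks of the sgNeg lists had ratios of 1.41 for H3K27Ac and 1.31 for H3K4me3 in all, and those of the sgNpm1A lists 2.09 and 4.60. The coding genes of the arm numbered 154 on GRCh37 and 149 on GRCh38 over 46 Mb, against 730 and 708 on the rest over 134.7 and 135.3 Mb. Coding genes were thus sparser on the arm, and the excess of promoter peaks per gene was larger than these ratios per Mb.

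**Figure D2:**
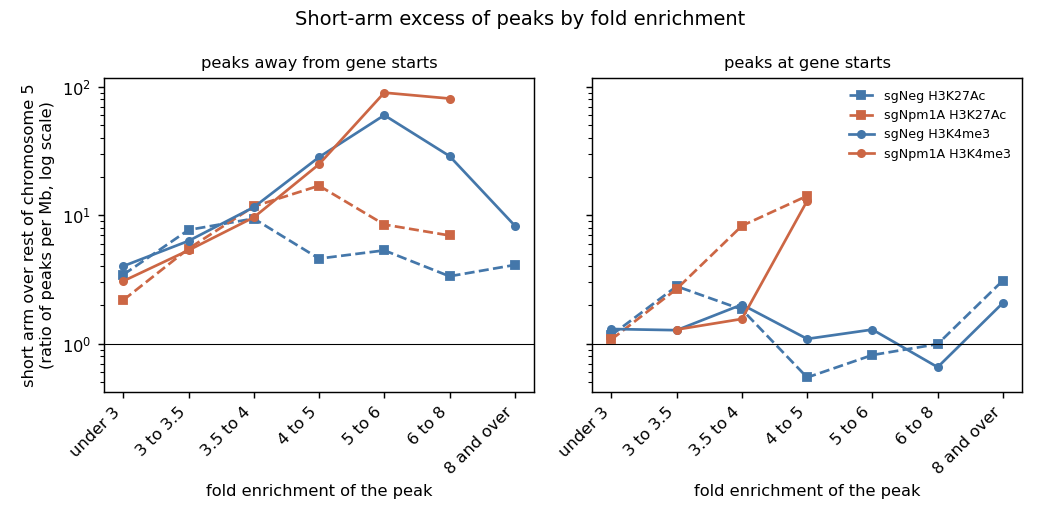
Peaks per Mb of the short arm divided by those of the rest of chromosome 5 (log scale) in 7 classes of fold enrichment, for peaks away from gene starts (left) and at gene starts (right); lines are the 4 lists, and classes with under 5 peaks in either part are left out. Away from gene starts the ratio of sgNeg H3K4me3 reaches 60.1 at a fold of 5 to 6, and at gene starts that of both sgNeg lists stays between 0.546 and 3.10.

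Most peaks of the arm with a fold of at least 4 lay away from promoters in all 4 lists. Of the peaks of the arm with a fold of at least 4, 80 of 314 lay at promoters in sgNeg H3K27Ac (25.5%, whole list 58.1 percent) and 33 of 676 in sgNpm1A H3K27Ac (4.88%, whole list 6.82 percent). In sgNeg H3K4me3 137 of 8263 did (1.66%, whole list 16.7 percent), and in sgNpm1A H3K4me3 44 of 5283 (0.833%, whole list 1.59 percent). Of the 62 sgNeg H3K27Ac peaks of the arm with a fold of at least 6, 39 (62.9%) lay at promoters, against 80.6% on the rest of the chromosome and 79.1% on other chromosomes. Of the 24 in sgNpm1A H3K27Ac 1 did (4.17%). Of 722 in sgNeg H3K4me3, 86 did (11.9%), against 217 of 306 (70.9%) on the rest of the chromosome. Of 353 in sgNpm1A H3K4me3, 10 did (2.83%).

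Most coding genes of the arm had a promoter peak in 3 of the 4 lists, and most had a peak in the windows beside, while in sgNpm1A H3K4me3 fewer did. In sgNeg H3K27Ac 141 of 154 coding genes (91.6%, 95% Wilson interval from 86.1 to 95) had a promoter peak, against 79.1 percent of all coding genes. The windows 20 kb away had one in 89.3%. In sgNpm1A H3K27Ac the count was 137 of 154 (89.0%, all genes 57.0 percent; 90.9% in the windows beside). In sgNeg H3K4me3 it was 130 of 149 (87.2%, all genes 65.1 percent; 76.5% beside). In sgNpm1A H3K4me3 it was 48 of 149 (32.2%, all genes 7.62 percent; 48.3% beside). On the rest of chromosome 5 the share at starts was 1.55, 1.03, 3.38 and 0.833 times that beside them, and on the arm 1.02, 0.979, 1.14 and 0.667 times.

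Peaks with a fold of at least 6 set the starts apart from their surroundings in the sgNeg lists. In sgNeg H3K4me3 79 of 149 genes (53.0%, all genes 33.9 percent) had such a promoter peak, while 8 and 13 had one in the windows 20 kb to the left and right. In sgNeg H3K27Ac 45 of 154 genes did (29.2%, all genes 13.0 percent), against 14 and 9 beside. In sgNpm1A H3K27Ac 1 gene did (all genes 0.154 percent), against 1 and 0, and in sgNpm1A H3K4me3 11 did (7.38%, all genes 0.162 percent), against 4 and 6.

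With a fold of at least 4 or a stricter q-value, the sgNeg starts of the arm held peaks 1.18 to 3.17 times as often as the windows beside them, and the sgNpm1A starts 0.667 to 1.07 times. With a fold of at least 4 the shares of the arm's genes were 51.9% in sgNeg H3K27Ac (all genes 40.6 percent; 16.9% in the windows beside), 20.1% in sgNpm1A H3K27Ac (2.31 percent; 19.5% beside), 71.8% in sgNeg H3K4me3 (48.5 percent; 37.9% beside) and 25.5% in sgNpm1A H3K4me3 (2.63 percent; 35.2% beside). With q-values under 0.01 they were 81.8% (all genes 60.8 percent), 72.7% (30.5 percent), 87.2% (63.5 percent) and 32.2% (7.32 percent) in the same order. With q-values under 1e-05 they were 49.4% (35.6 percent), 9.74% (0.903 percent), 75.8% (50.6 percent) and 20.1% (1.23 percent).

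In 1 kb steps from the start of the gene record, the sgNpm1A H3K4me3 list had fewer peaks at the start than around it. The first kb of the gene held a peak in 23.5% of the arm's genes, and the steps 10 to 25 kb away did so in 31.5% to 42.3% (median 37.6%). In sgNeg H3K4me3 the first kb had 80.5% and the far steps 51.0% to 67.8% (median 61.7%). In sgNeg H3K27Ac the values were 83.8% and 55.8% to 71.4% (64.0%). In sgNpm1A H3K27Ac the first kb, with 68.2%, lay inside the range of the far steps, 56.5% to 71.4% (65.3%).

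**Figure D3:**
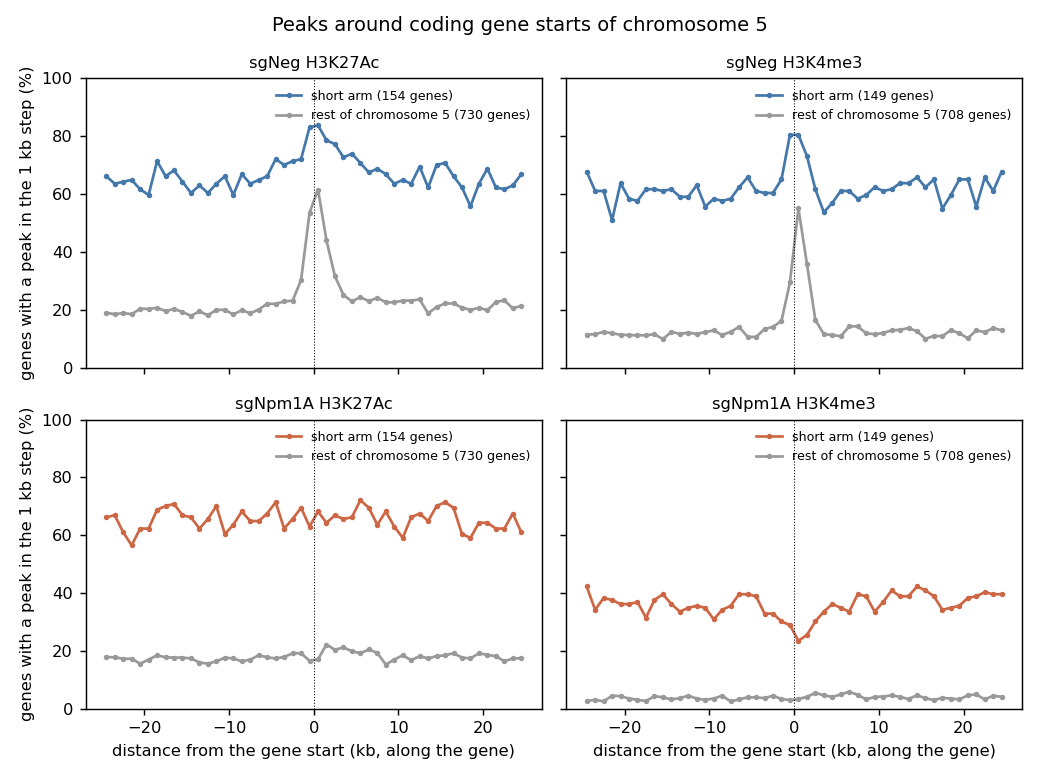
Share of coding genes with a peak in each 1 kb step from 25 kb before to 25 kb after the gene start, for the short arm (coloured) and the rest of chromosome 5 (grey), 1 panel per list. The sgNeg lines peak at the start over a raised floor on the arm, the sgNpm1A H3K27Ac line is level, and the sgNpm1A H3K4me3 line of the arm is lowest, at 23.5%, in the first kb of the gene.

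Promoters with the highest sgNeg H3K4me3 folds mostly had no peak in sgNpm1A. ICE1, a subunit of the little elongation complex that serves transcription of small nuclear RNA genes, had a fold of 23.3 in sgNeg (chr5:5422667-5424342) and no peak in sgNpm1A. ZNF622, a zinc finger protein, had 19.6 and no peak, and EXOC3, a subunit of the exocyst, had 18.5 and no peak. SKP2, which recognizes substrates of a ubiquitin ligase of the cell cycle, shares its promoter peak with LMBRD2, and this peak had 19.6 in sgNeg against 3.05 in sgNpm1A. The H3K27Ac folds of these 5 genes in sgNeg were 5.49, 5.56, 6.38, 6.0 and 6.0 in the order ICE1, ZNF622, EXOC3, SKP2 and LMBRD2, and 3.09, 3.10, 4.53, 4.59 and 2.80 in sgNpm1A. At EXOC3, SKP2 and LMBRD2 the H3K27Ac peaks of the guides lay apart, so these folds are not those of the same peak.

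The highest sgNpm1A H3K4me3 folds were at other promoters. SLC12A7, a potassium chloride cotransporter, had 7.89 in sgNpm1A and 11.2 in sgNeg, and LRRC14B had 7.12 and 6.66. UBE2QL1, a protein of the ubiquitin-conjugating family, had 7.12 and 10.2. BRD9, a bromodomain subunit of a chromatin remodelling complex, and TRIP13, an ATPase of the mitotic checkpoint, share a promoter peak with 6.87 in sgNpm1A and 16.4 in sgNeg. UBE2QL1 was also first in sgNpm1A H3K27Ac, with 7.37 (chr5:6447178-6449845) against 6.60 in sgNeg.

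By class of sgNeg H3K4me3 fold, 9 of the 57 genes at 8 and over had a sgNpm1A peak (15.8%, 95% Wilson interval 8.54 to 27.4), and 10 of the 22 at 6 to 8 (45.5%, 26.9 to 65.3). Of the 28 at 4 to 6, 22 had one (78.6%, 60.5 to 89.8), and of the 23 under 4, 7 had one (30.4%, 15.6 to 50.9). None of the 19 genes without a sgNeg peak had a sgNpm1A peak, which allows a share of up to 16.8%. In all, 48 of the 130 genes with a sgNeg H3K4me3 promoter peak had one in sgNpm1A (36.9%; over all genes with a sgNeg peak 9.12 percent; rest of chromosome 5 4.70%). For H3K27Ac 135 of 141 did (95.7%, all genes 66.0 percent; rest of chromosome 5 56.7%). Windows 20 kb away from the arm's gene starts held a sgNpm1A peak in 48.3% for H3K4me3 and 90.9% for H3K27Ac. At the 48 genes with a H3K4me3 peak in both guides, the strongest peaks overlapped at 37 and lay apart at 11. Those apart include LPCAT1, MTRR, GHR, CCL28 and IRX1. Of the 22 genes at 8 and over in sgNeg H3K27Ac, 20 had a sgNpm1A peak, with a median fold of 3.49, and none of the 22 had a higher fold in sgNpm1A.

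The highest sgNeg H3K27Ac promoters were those of ZNF131, a zinc finger protein, with 13.5 (chr5:43063185-43069297), and GOLPH3, a Golgi phosphoprotein, with 12.9 (chr5:32171549-32175548). They were followed by ANXA2R, an annexin receptor, with 12.3, RICTOR, a subunit of an mTOR complex, with 12.1, and MARCHF6, a ubiquitin ligase of the endoplasmic reticulum, with 11.0. In sgNpm1A the folds were 2.88, 3.07, no peak, 5.98 and 3.66 in the same order. The H3K27Ac value is that of the strongest peak at any annotated transcript start. Of the 135 genes with one in both guides, the peaks of 68 overlapped and those of 67 lay apart. Those apart include RICTOR (chr5:38970080-38970427 in sgNpm1A), ZNF131 (chr5:43122464-43122762), MARCHF6 (chr5:10414570-10415003), EXOC3, SKP2 and LMBRD2. The other high sgNpm1A H3K27Ac promoters were CEP72, a centrosomal protein, with 5.48 (5.51 in sgNeg), and H3Y2 and TAF11L3, with 5.10 and 4.76. H3Y2 and TAF11L3 have near-identical copies beside them, so their values are uncertain.

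Gene lists of the arm separated by the sgNeg marks. The lists were written with earlier results of these data known and are described by counts only. All 8 genes of translation and the ribosome had a sgNeg H3K4me3 fold of at least 8, with a median of 12.8, against 57 of all 149 genes of the arm and 18.8 percent of all coding genes. In H3K27Ac 2 of the 8 did, against 22 of 154 and 2.76 percent. RPL37, a protein of the large ribosomal subunit, and BRIX1, a factor of its assembly, had 13.7 each, and MRPS30, of the mitochondrial ribosome, had 14.4. None of the 8 had a sgNpm1A H3K4me3 peak, which 48 of 149 genes of the arm and 7.62 percent of all genes had, and their H3K27Ac folds ran from 6.33 to 10.00 in sgNeg (median 7.17) and from 2.70 to 3.88 in sgNpm1A (median 3.03), without overlap.

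Of 13 genes of genome upkeep, transcription and the cell cycle, 11 had a sgNeg H3K4me3 fold of at least 8 (median 13.7). Over the arm 57 of 149 genes had such a fold, and 18.8 percent of all coding genes. In sgNpm1A 4 of the 13 had a peak, a share like that of all genes of the arm, 48 of 149. NIPBL, the cohesin loader, had 12.3 and MED10, a Mediator subunit, had 13.7, both with no peak in sgNpm1A. The 2 below 8 were TERT, the telomerase reverse transcriptase, with 5.41 in sgNeg and 4.83 in sgNpm1A, and PRDM9, a methyltransferase of meiosis, with 4.58 and no peak. Of 10 metabolic enzymes 8 were at 8 and over (median 11.5), among them LPCAT1, which makes phosphatidylcholine, with 18.3, and SDHA, a subunit of succinate dehydrogenase, with 15.8. In sgNpm1A LPCAT1 and MTRR, methionine synthase reductase, were the 2 with a peak, of 6.10 each and apart from their sgNeg peaks. Of all genes of the arm 48 of 149 had a sgNpm1A peak, and 7.62 percent of all coding genes. MTRR had 4.99 in sgNeg at the start of its gene record. Its strongest sgNeg H3K27Ac promoter peak, of 7.10, lay at another transcript start and was shared with FASTKD3. FASTKD3, named after its values were seen, had 15.2 in sgNeg H3K4me3 and no sgNpm1A H3K4me3 peak.

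Of 12 genes of blood cell and cytokine signalling 3 were at 8 and over in sgNeg H3K4me3 (median 4.78). Over the arm 57 of 149 genes were, and 18.8 percent of all coding genes. The 3 were RICTOR with 13.1, OTULIN, a deubiquitinase of linear ubiquitin chains, with 12.3, and PTGER4, a prostaglandin receptor, with 8.53. IL7R, the receptor chain of interleukin 7, had 2.91, OSMR, the oncostatin M receptor, had 7.28, and FYB1, an adaptor of T cells and myeloid cells, had no H3K4me3 peak. GHR, the growth hormone receptor, and CCL28, a chemokine, were the 2 with a sgNpm1A H3K4me3 peak, of 3.31 and 5.09 against 6.24 and 4.37 in sgNeg. At both genes the peaks of the guides lay apart. Over the arm 48 of 149 genes had a sgNpm1A H3K4me3 peak (all coding genes 7.62 percent).

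The listed cadherin, nervous system, IRX and complement genes had no sgNeg fold of 8 or over in either mark. Over the arm 22 of 154 genes had one for H3K27Ac (all coding genes 2.76 percent) and 57 of 149 for H3K4me3 (18.8 percent). Of the 5 cadherins 2 had a sgNeg H3K4me3 peak, CDH6 with 3.95 and CDH12 with 3.33. Over the arm 130 of 149 genes had one (all coding genes 65.1 percent). No cadherin had one in sgNpm1A, against 48 of 149 genes (7.62 percent). All 5 had a H3K27Ac peak at a transcript start in both guides. So had 141 of 154 genes of the arm in sgNeg (all coding genes 79.1 percent) and 137 in sgNpm1A (57.0 percent). The cadherin H3K27Ac folds ran from 2.61 to 3.33 in sgNeg and from 2.68 to 3.89 in sgNpm1A. The 6 genes of the nervous system had sgNeg H3K4me3 folds of 3.33 to 6.24 (median 4.47). In sgNpm1A 4 of these 6 had a H3K4me3 peak, against 32.2% of the arm's genes, 48.3% of windows 20 kb away and 7.62 percent of all genes. Their median fold in sgNpm1A was 4.71, against 0 for all genes of the arm, when no peak is taken as 0. SLC6A3, the dopamine transporter, had 6.24 in sgNeg and 6.87 in sgNpm1A. IRX1, IRX2 and IRX4, homeobox genes of patterning, had 3.95, 4.37 and 4.99 in sgNeg and 3.31, 4.32 and 5.60 in sgNpm1A. The IRX1 peaks of the guides lay apart. The complement genes C6, C7 and C9 had 3.12, 4.37 and 5.62 in sgNeg, and no peak, 3.82 and 4.58 in sgNpm1A.

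**Figure D4:**
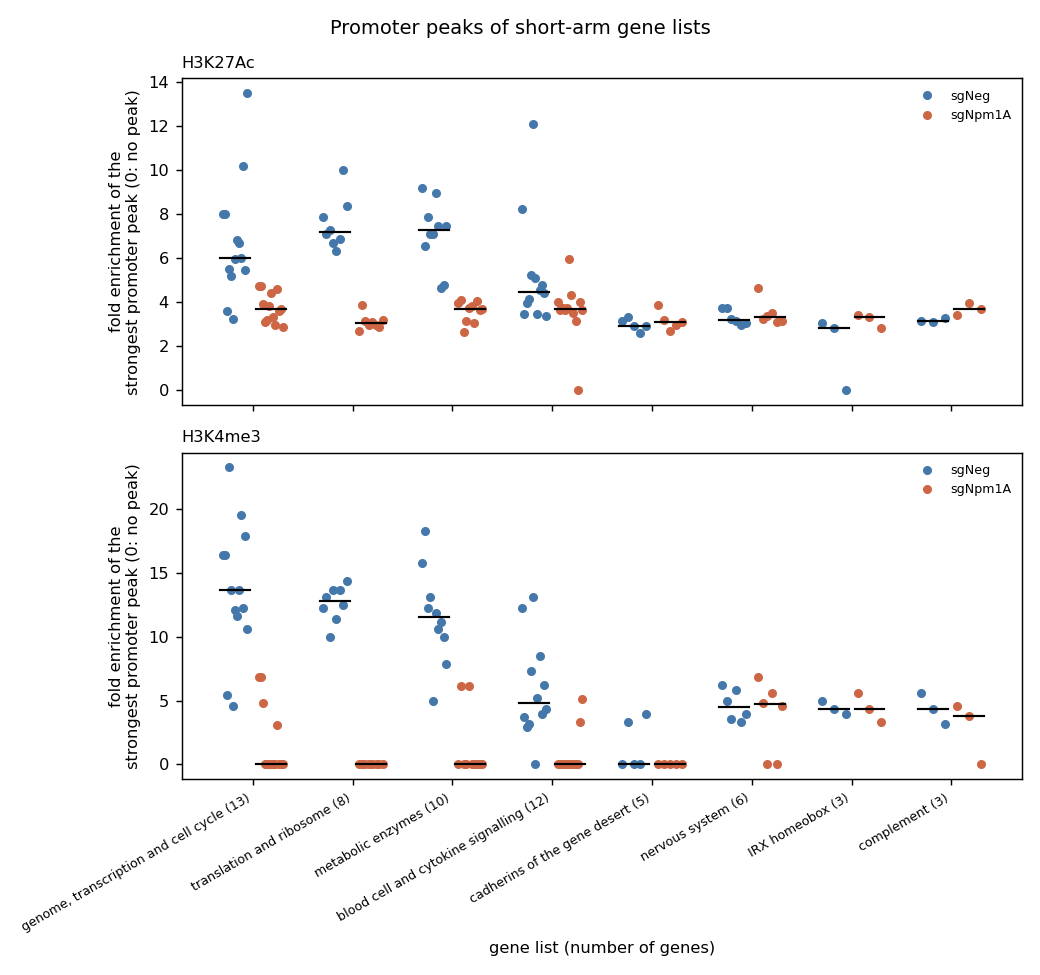
Fold enrichment of the strongest promoter peak of each gene in 8 lists of short-arm genes, for H3K27Ac (top) and H3K4me3 (bottom), with sgNeg in blue and sgNpm1A in orange; 0 stands for no peak, and bars are medians. For translation and the ribosome all 8 H3K4me3 points of sgNeg lie at 9.98 or higher and all 8 of sgNpm1A at 0.

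Median CpG content was highest at sgNeg H3K4me3 folds of 8 and over and lowest at folds under 4. Of the 149 coding genes 115 had a RefSeq promoter sequence that starts at the same base as the gene record. The 43 of them with a fold of 8 and over had a median of 27 CpGs in the 250 bases before the start, the 40 at 4 to 8 had 17, the 16 under 4 had 6, and the 16 without a peak had 10, against 18 for all 12711 promoters compared. Within the genes at 8 and over, the 7 with a sgNpm1A peak had a median of 28 CpGs and the 36 without one 25.

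The 5 strongest H3K27Ac peaks away from promoters shared 1 site between guides, near IRX1. In sgNeg the first was in the AHRR gene (chr5:392531-397145), which codes for a repressor of the aryl hydrocarbon receptor, with a fold of 16.1. Next to it lay another of 13.5 (chr5:398374-406985) and the widest peak of the arm (chr5:407518-450723, 43206 bp), which spans the start of EXOC3 and had 6.38. The peaks of 16.1 and 13.5 had 29.7 and 31.6 CpGs per kb and at most 0.0929% of their bases in the runs of alternating letters described above. The second strongest sgNeg peak, 112 kb from the start of IRX1 with 13.5, had 3.18 CpGs per kb and 11.2% of its bases in runs. In sgNpm1A the 5 strongest lay outside coding genes, 111 kb from the start of IRX1, 225 and 291 kb from that of IRX2, 166 kb from that of ADAMTS16 and 300 kb from that of ADCY2, with folds of 16.7, 9.59, 8.59, 8.37 and 7.72. They had 3.19 to 7.65 CpGs per kb, and 4 of the 5 held such runs, over 6.68% to 13.4% of their bases. These peaks and genes were chosen after their values were seen.

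The site near IRX1 was strong in every list. It had a fold of 13.5 in sgNeg H3K27Ac (chr5:3483676-3484932) and 16.7 in sgNpm1A H3K27Ac (chr5:3483649-3485760) on GRCh37. On GRCh38 the H3K4me3 lists had a peak 112 kb from the same gene start, with 20.4 in sgNeg (chr5:3483554-3484874) and 10.9 in sgNpm1A (chr5:3483432-3484998). The highest sgNpm1A H3K4me3 peaks of the arm lay in SLC6A19, an amino acid transporter of gut and kidney, with 14.2 (chr5:1220534-1222960) and 12.2 (chr5:1208575-1212986), and the first of these stood against 15.4 in sgNeg (chr5:1220474-1223574).

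Over the arm as a whole, base content was read from the 300 bases in the middle of each H3K27Ac peak. ACACACAC or GTGTGTGT, which are the same run on opposite strands, was found in 4.08% of all 153131 windows of 300 bases on the arm. It was found in 5.47% of the 530 promoter peaks of each guide, and in 5.99% and 5.92% of the weak peaks elsewhere in sgNeg and sgNpm1A. Of peaks elsewhere with a fold of 4 to 6 it was found in 56 of 211 in sgNeg (26.5%, 95% Wilson interval 21.0 to 32.9) and in 91 of 620 in sgNpm1A (14.7%, 12.1 to 17.7). Of those at 6 and over it was found in 7 of 23 in sgNeg (30.4%, 15.6 to 50.9) and in 14 of 23 in sgNpm1A (60.9%, 40.8 to 77.8). On the rest of chromosome 5 the shares at 4 to 6 were 24 of 131 in sgNeg (18.3%, 12.6 to 25.8) and 40 of 116 in sgNpm1A (34.5%, 26.5 to 43.5). At 6 and over they were 5 of 19 (26.3%) and 7 of 13 (53.8%). The H3K4me3 lists were not read this way, since no genome sequence of their build was used here.

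**Figure D5:**
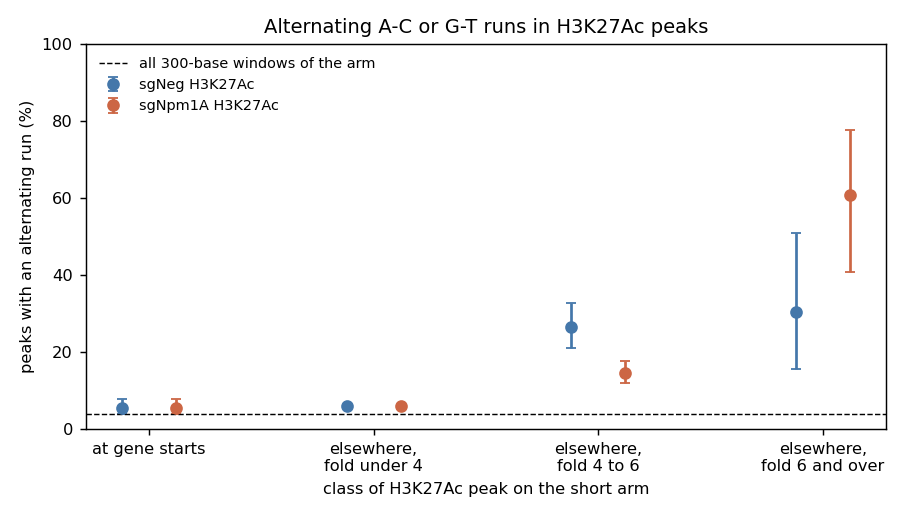
Share of H3K27Ac peaks on the short arm with ACACACAC or GTGTGTGT in their middle 300 bases, by class of peak, with 95% Wilson intervals; the dashed line is the share of all windows of the arm, 4.08%. Peaks at gene starts and weak peaks elsewhere lie near the line, and peaks of fold 6 and over reach 30.4% in sgNeg and 60.9% in sgNpm1A.

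The weak peaks of the arm were closer in base content to the arm itself than those of the long arm were to theirs. Their middle 300 bases had a median of 42.0% G and C in sgNeg and 41.3% in sgNpm1A, against 38.3% for all windows of the arm. On the rest of chromosome 5 the weak peaks had 46.3% and 45.7%, against 38.7% for all windows. Weak peaks of the arm had a median of 2 CpGs in both guides, as had all windows, and the 80 sgNeg promoter peaks with a fold of at least 4 had 11.

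The peaks of both guides coincided more often on the arm than elsewhere, where peaks also cover less of the sequence. On the arm 77.8% of sgNeg H3K27Ac peaks (95% Wilson interval 77.1 to 78.4) shared at least 1 bp with a peak of sgNpm1A, against 50.7 percent over the whole list and 39.2% on the rest of chromosome 5. Of the sgNeg H3K4me3 peaks of the arm 43.7% (43.1 to 44.2) did, against 22.6 percent and 12.3%. In the other direction 75.6% of sgNpm1A H3K27Ac peaks (whole list 51.4 percent) and 87.3% of sgNpm1A H3K4me3 peaks (whole list 61.2 percent) overlapped a sgNeg peak. The sgNpm1A peaks covered 30.7% of the arm for H3K27Ac and 15.0% for H3K4me3, against 4.18% and 0.814% of the rest of the chromosome. In sgNeg H3K4me3 23 of the 86 promoter peaks with a fold of at least 6 (26.7%, 18.5 to 37.0) were overlapped, and 66.8% (65.8 to 67.9) of the 8126 peaks elsewhere with a fold of at least 4.

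The number of peaks moved differently by mark and strength. The arm had 0.930 times as many H3K27Ac peaks in sgNpm1A as in sgNeg, and they covered 1.18 times the length. Peaks with a fold of at least 4 numbered 314 in sgNeg (2.04%, whole list 3.76 percent) and 676 in sgNpm1A (4.71%, whole list 2.17 percent), a ratio of 2.15, against 0.329 on the rest of chromosome 5 and 0.524 on other chromosomes. These 676 covered 0.818 Mb and the 314 covered 1.098 Mb. Of the promoter peaks with a fold of at least 6 there were 39 in sgNeg and 1 in sgNpm1A, and elsewhere 23 in each. For H3K4me3 the ratio was 0.375 in peak number and 0.729 in length, against 0.272 and 0.510 on the rest of the chromosome. H3K4me3 peaks with a fold of at least 4 numbered 8263 in sgNeg (30.6%, whole list 17.0 percent) and 5283 in sgNpm1A (52.2%, whole list 32.1 percent). The same H3K4me3 fold stood for fewer fragments in sgNpm1A, whose background was 2.93 fragments against 3.81 in sgNeg. At a fold of at least 6 promoter peaks went from 86 to 10, and peaks elsewhere from 636 to 343, a ratio of 0.539, against 0.146 on the rest of chromosome 5. Peaks were called in each library on its own and depth is not known from the peak lists, so the part of depth in these ratios was not tested.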

How the data were processed

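ChIP-seq of H3K27Ac and H3K4me3 in OCI-AML3 cells gave 4 peak lists, 1 library per guide RNA and mark, with groups as the sample titles give them. The submitters' processing notes name bcl2fastq 2.17, Trimmomatic 0.33, Bowtie 1.1.2, MACS2 2.1.0, deepTools and hg38. The coordinates put the H3K27Ac lists on GRCh37, since peaks on chromosome 1 end at 249218478, and the H3K4me3 lists on GRCh38. Nothing was converted between builds. The tags OCI2 and OCI3 in the names of the H3K27Ac and H3K4me3 lists are not explained in the sources used here. Each library was called alone by the authors, in the broad layout for H3K27Ac and the narrow one for H3K4me3. Fold enrichment, as deposited, is a ratio of pileup to expected pileup (mean over the region for H3K27Ac, value at the summit for H3K4me3). The H3K4me3 folds fit this ratio with 1 fragment added to both terms. Significance was deposited as −log10 of p-values and of q-values, and the largest q-values were 0.0707, 0.0437, 0.0308 and 0.0226. The deposited score was not used. The calling limit and the use of the inputs are not given in the sources used here. Tn5 cut shifts were not stated and would move edges by a few bases.

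Peaks were counted by their midpoint in 500 kb bins, and steps were placed by Poisson likelihood. Coding genes were those of GENCODE version 44 lifted to GRCh37 (20162 genes, every transcript start) and of a RefSeq table of GRCh38.p14 (19101 genes with a strand, start of the gene record). Windows 20 kb to either side of each start were the comparison for promoters. Bases came from GRCh37, and promoter sequences from RefSeq. A gene was named if it was among the 5 highest promoters of a list, in the gene lists, or in the 3 densest or sparsest bins of a list. The members, gene lists and comparisons were chosen with earlier results of these data known. Wilson intervals cover counting error only. With 1 library per group no test between guides was run. Python 3.11.15, pandas 2.3.3, numpy 2.4.6, scipy 1.17.1 and matplotlib 3.10.9 were used, and step finding and overlaps were tested on simulated data.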

Additional observations from a re-analysis of the deposited data

Results flagged for a closer look

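Going from sgNeg to sgNpm1A, the marks of the short arm moved in opposite directions in 2 measures, with 1 library behind each value, and the difference between marks was not tested. The number of peaks with a fold of at least 4 was 2.15 times as high in sgNpm1A for H3K27Ac and 0.639 times as high for H3K4me3. For H3K4me3 a fold of 4 stood for fewer fragments in sgNpm1A than in sgNeg. The covered length was 1.18 times as long for H3K27Ac and 0.729 times for H3K4me3. On the rest of chromosome 5 both measures were lower in sgNpm1A for both marks, with 0.329 and 0.441 for peaks with a fold of at least 4 and 0.851 and 0.510 for covered length.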

How the results depend on the processing

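Values are given in the order sgNeg H3K27Ac, sgNpm1A H3K27Ac, sgNeg H3K4me3 and sgNpm1A H3K4me3 unless named. Of 100 recomputed values 49 stayed close to the reported one (a ratio or count within 1.5 times, a share within its interval, a step within 0.5 Mb), 47 moved further and 4 changed direction, and the causes were not tested. The density ratio of 5p to the rest of chromosome 5 stayed above 1 under every alternative. It was 6.60 and 7.39 for the H3K27Ac lists with q-values under 0.01, and 1.88, 11.7, 19.9 and 58.8 with q-values under 1e-05. With a fold of at least 4 it was 2.24, 14.7, 21.4 and 31.1. Among the 20000 peaks of lowest p it was 12.8, 15.4 and 42.8 in the last 3 lists, and by covered bases 7.35, 12.9 and 18.5. With covered bases and least squares the step lay at 44, 45, 45 and 17 Mb, the last within the short arm. The percent of genes with a promoter peak was 81.8 and 72.7 for H3K27Ac at q-values under 0.01, 49.4, 9.74, 75.8 and 20.1 at q-values under 1e-05, and 51.9, 20.1 and 71.8 in the first 3 lists at a fold of at least 4. It was 79.2 in sgNpm1A H3K27Ac with gene record starts alone, and 24.2 and 45 in sgNpm1A H3K4me3 with windows of 500 bp and 2 kb. The H3K27Ac ratio of sgNpm1A to sgNeg peak number, 0.930, changed direction in every alternative: 1.65 and 1.08 at q-values under 0.01 and 1e-05, 2.15 at a fold of at least 4 and 1.18 by covered bases. The H3K4me3 ratio was 0.639 at a fold of at least 4 and 0.729 by covered bases. Where at least 50% of both peaks had to overlap, 29.8% of H3K27Ac and 16.3% of H3K4me3 sgNeg peaks did. The shares were 71.6% and 44.8% with q-values under 0.01 in both lists, and 39.2% and 48.2% with a fold of at least 4 in both. Alternatives chosen after seeing the data were the long arm past the centromere alone, which left the density ratios at 3.88, 3.56, 8.28 and 11.4, starts from the RefSeq promoter table, other windows for promoters with a fold of 8 and over, and other lengths of window and run for base content. Of sgNeg H3K4me3 promoters with a fold of 8 and over, 1 of 53 had a sgNpm1A peak within 500 bp and 19 of 58 within 2 kb. Of arm H3K27Ac peaks with a fold of at least 4 away from promoters, 26.9% in sgNeg and 16.3% in sgNpm1A held a run of 8 letters, and 9.40% and 5.60% one of 12 letters, against 1.52% of all windows. No paired analysis was possible because each group has 1 library and no result comes from a test. With single libraries the spread between replicates is unknown, and peak lists hold neither depth nor signal below the calling limit.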
